A study of Homo sapiens with 51 samples.

Results

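The 9 genes described here belong to type I interferon signalling and were followed across every group of the study: the receptor subunits IFNAR1 and IFNAR2, the signal transducers STAT2 and STAT3, and the interferon regulatory factors IRF1, IRF2, IRF3, IRF7 and IRF9. They are 9 of the 25421 gene symbols in the count table, and all 9 passed the filter on low counts in each fit. The family was chosen by the readout of IRF9, whose RNA rose with OVOL2 most in KP4. The changes of IRF9 with OVOL2 are therefore given as a description with no test. The same holds for all 9 genes in the arm with M2rtTA, where the rise of IRF9 in KP4 was steepest, so tests are given on the other 8 genes in the arm without M2rtTA and on contrasts that do not involve OVOL2.

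The data were gene counts from PLATE-seq, a method that barcodes 3′-end cDNA in each well and pools the wells for sequencing, on 51 libraries of established human pancreatic ductal adenocarcinoma cell lines in 17 groups of 3. KP4, PANC1 and PK45H each had 5 groups, namely untreated, mCherry, OVOL2, mCherry + M2rtTA and OVOL2 + M2rtTA, whereas HPAFII and PATU8988S were untreated only. OVOL2 is a zinc-finger transcription factor, mCherry a fluorescent protein used as the control, and M2rtTA a transactivator of doxycycline-dependent promoters. All transduced cells received a lentivirus with the open reading frame at a multiplicity of infection of 2 with 8 µg/ml polybrene, then 2.5 µg/ml puromycin and 0.6 µg/ml doxycycline, also where M2rtTA was absent. RNA was taken after 6 days in total, and 100 ng entered each library. The labels do not give the promoter of the open reading frame, and they do not say whether the 3 libraries of a group came from separate cultures beyond transduction in triplicate. p-values then measure only the spread between these libraries.

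Type I interferons bind a receptor made of IFNAR1 and IFNAR2, whose kinases TYK2 and JAK1 phosphorylate STAT proteins. Phosphorylated STAT2 and IRF9 are parts of ISGF3, the complex that binds interferon-stimulated response elements and switches on antiviral genes such as ISG15 and MX1. IRF3 and IRF7 act upstream, where sensors of viral nucleic acid activate them to induce interferon genes, and IRF7 is itself an interferon-induced gene. IRF1 activates and IRF2 mostly represses overlapping targets, while STAT3 is best known for signalling from the IL6 family of cytokines.

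Library totals ran from 1165399 to 7490556 counts, and 15653 to 18817 genes had a count in a library. Levels are given as CPM, with each library scaled by its TMM-corrected size. Where groups are said to overlap or to separate, the share of all genes that did so was not counted. Among the 9 genes the counts per library ran from 5 for IRF7 to 4130 for IRF1, so single libraries of IRF7, IRF2 and STAT2 rest on few reads. IFNAR2 also had few in the OVOL2 libraries without M2rtTA, 38, 46 and 21 counts in PANC1 and 34, 22 and 25 in PK45H. IRF9 had 24, 34 and 31 counts in PANC1 mCherry. OVOL2 RNA, the gene the virus carries, was not measurably higher in OVOL2 than in mCherry cells without M2rtTA, with a mean log2 fold change of -0.09 ± 0.46 (SE, adjusted p = 0.926 by edgeR), and its log2 fold change with M2rtTA was 2.15 ± 0.44 (adjusted p = 0.0002099). By line with M2rtTA it was 3.08 in KP4 (adjusted p = 0.02721), where the OVOL2 libraries held 13, 62 and 9 counts of it, and 1.98 in PK45H (0.01348). In PANC1 it was 1.40, which was not called (adjusted p = 0.244), and the groups overlapped. These are counts of 3′-end cDNA, and whether they include transcript of the viral open reading frame was not tested. In all, 3 libraries stood apart for the genes described here. IRF1 had 4130 counts in PANC1 mCherry replicate 2, STAT3 had 1191 counts in PK45H untreated replicate 3, and HPAFII untreated replicate 2 had the smallest total. Summed over 6 epithelial marker genes, every line had at least 615 CPM in each library, whereas the 6 leukocyte markers summed to at most 31.8 CPM. The 6 fibroblast markers summed to at most 66.3 CPM and the 4 endothelial markers to at most 15.7 CPM. With M2rtTA the fibroblast sum was 44.6 to 55.2 CPM with OVOL2 against 22.8 to 32.1 CPM with mCherry in KP4. It was 48.1 to 66.3 against 28.5 to 38.3 CPM in PANC1, and 28.6 to 34.6 against 11.8 to 14.5 CPM in PK45H. Without M2rtTA these groups overlapped in each line. These are bulk samples, so fewer cells with a transcript and less transcript per cell cannot be told apart.

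**Figure D1:**
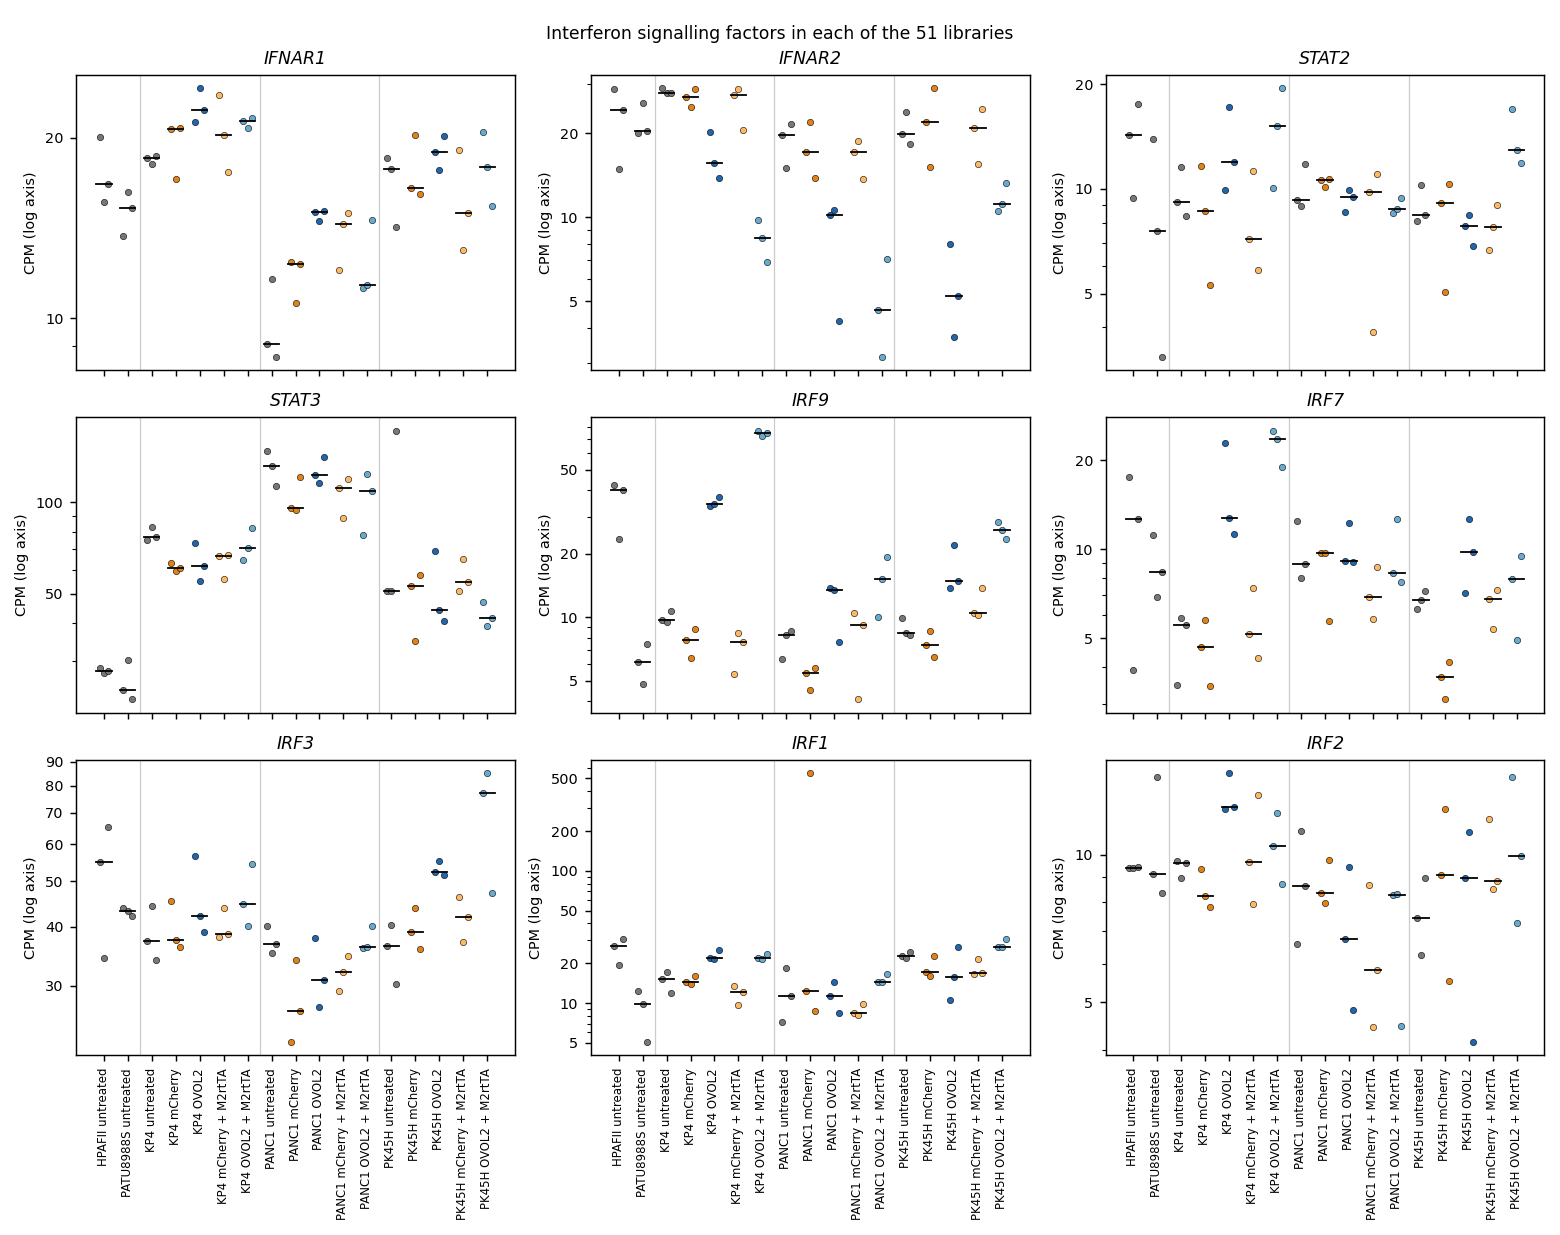
Level of each of the 9 genes in each of the 51 libraries, in CPM on a log axis, by group. Each point is 1 library, the short line is the group median, grey is untreated, orange shades are mCherry and blue shades are OVOL2. IRF9 in KP4 OVOL2 + M2rtTA lies between 72.2 and 76.7 CPM, and the IRF1 point at 548 CPM is PANC1 mCherry replicate 2.

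IFNAR2, the high-affinity subunit of the type I interferon receptor, fell with OVOL2. In KP4 its level was 27, 24.9 and 28.8 CPM in the mCherry libraries and 20.2, 15.6 and 13.8 CPM in the OVOL2 libraries. In PANC1 it was 17.1, 21.9 and 13.8 CPM with mCherry and 10.2, 10.6 and 4.23 CPM with OVOL2. In PK45H it was 21.9, 15.1 and 29 CPM with mCherry and 8.04, 3.71 and 5.2 CPM with OVOL2. Every OVOL2 library lay below every mCherry library of its line. The mean log2 fold change over the 3 lines was -1.25 ± 0.16 (adjusted p = 4.912e-07), where 18.1% of the genes tested were called in either direction. PK45H had the steepest fall, a log2 fold change of -2.02 ± 0.29 (adjusted p = 0.0005866). KP4 had -0.69 ± 0.17 (adjusted p = 0.027), and the -1.08 ± 0.33 of PANC1 missed the threshold (adjusted p = 0.079). The KP4 call was lost in 4 of 9 fitting alternatives and in 5 of the 15 fits that left out 1 library, those without any one of the mCherry libraries or without OVOL2 replicate 2 or 3. Its adjusted p was 0.252 when all libraries were thinned to the smallest total and 0.131 in one fit of all 51 libraries, and it reached 0.107 with single libraries left out. PANC1 had no call in any of its 15 fits that left out 1 library (adjusted p 0.073 to 0.243). There the fall passed the threshold with DESeq2 (adjusted p = 0.0394) and in one fit of all 51 libraries (0.0161). A difference in the size of the fall between the lines was not called (adjusted p = 0.14, unadjusted p = 0.0083, edgeR test with 2 degrees of freedom). This test recovered 19% of 2-fold differences in simulated counts. Its result therefore does not show that the fall was equal in the lines.

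With M2rtTA, IFNAR2 in KP4 was 27.4, 28.9 and 20.6 CPM with mCherry and 9.74, 8.45 and 6.93 CPM with OVOL2. In PANC1 the corresponding values were 17.1, 18.8 and 13.7 CPM against 4.64, 3.16 and 7.06 CPM, and in PK45H 20.9, 15.6 and 24.4 CPM against 10.5, 11.1 and 13.3 CPM. The OVOL2 libraries were again all below the mCherry libraries of their line. The log2 fold changes were -1.59, -1.74 and -0.80 in KP4, PANC1 and PK45H. The fall was thus the larger one with M2rtTA in KP4 and PANC1 and the smaller one in PK45H, a difference between the arms that was not tested.

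**Figure D2:**
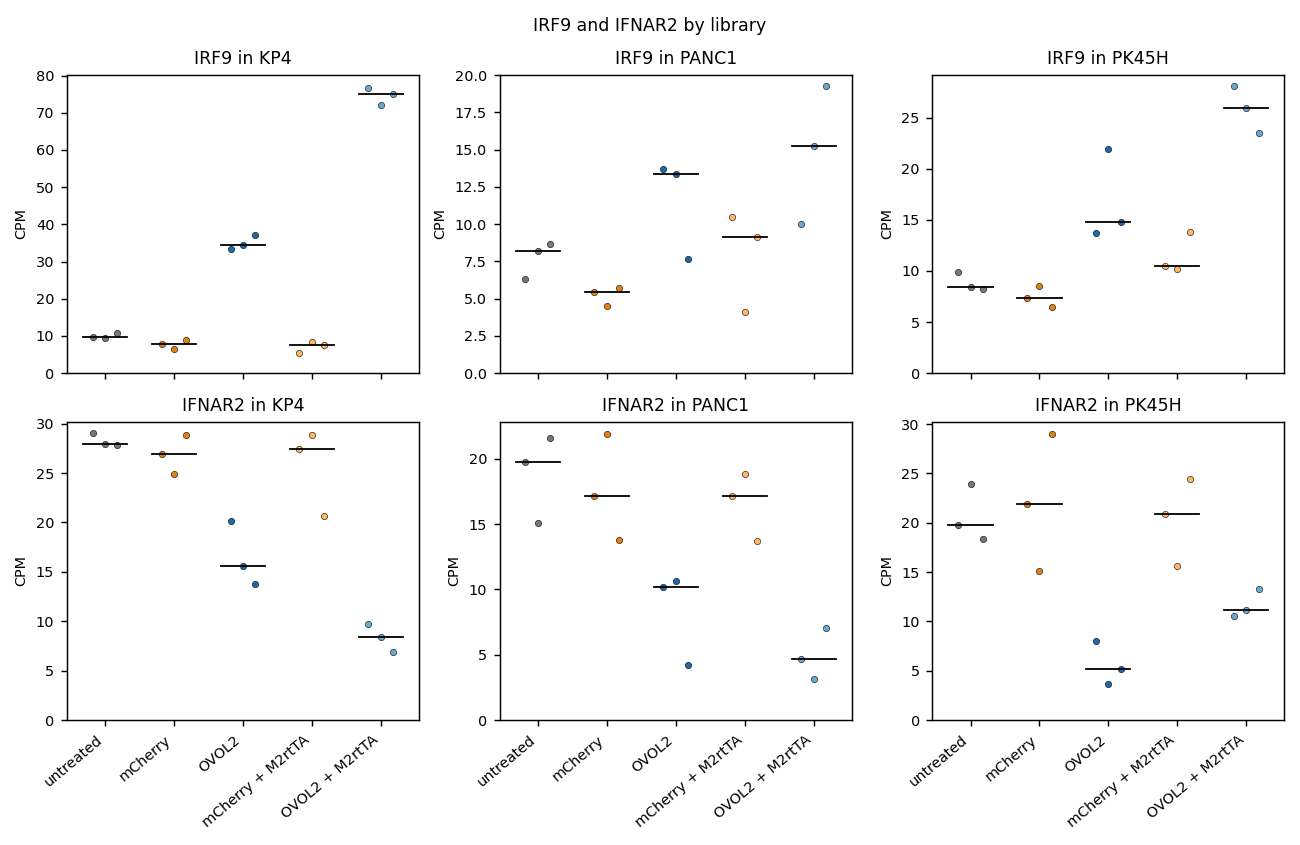
IRF9 and IFNAR2 by library in KP4, PANC1 and PK45H, in CPM on axes that start at 0. Each point is 1 library and each line a group median. All OVOL2 points of IFNAR2 lie under the mCherry points of the same line and arm, and IRF9 in KP4 lies at 33.5 to 37 CPM with OVOL2 and 72.2 to 76.7 CPM with OVOL2 + M2rtTA.

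IFNAR1, the other receptor subunit, did not fall with it. Its mean log2 fold change without M2rtTA was 0.24 ± 0.09 (adjusted p = 0.065). With M2rtTA it was 0.04 ± 0.09, and the groups overlapped in all 3 lines. Without M2rtTA the level of IFNAR1 in KP4 was 20.7, 17.1 and 20.7 CPM with mCherry and 21.3, 24.2 and 22.3 CPM with OVOL2. In PANC1 it was 12.4, 10.6 and 12.3 CPM against 15.1, 14.5 and 15.1 CPM. The OVOL2 libraries were all the higher ones in these 2 lines. In PK45H the groups overlapped, at 16.5, 20.2 and 16.1 CPM with mCherry and 18.9, 17.7 and 20.2 CPM with OVOL2. The ratio of IFNAR2 to IFNAR1 counts within a library does not depend on scaling, and its median was 1.39 with mCherry and 0.646 with OVOL2 in KP4. The medians of PANC1 were 1.38 and 0.679, those of PK45H 1.33 and 0.258. The mean difference of its log2 over the 3 lines was -1.51. A two-sided exact permutation of the libraries within lines (8000 assignments) gave p = 0.00025, the smallest these can give. The direction of this ratio and its p-value follow from the separation of the IFNAR2 libraries above. Neither is a separate observation or further support.

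**Figure D3:**
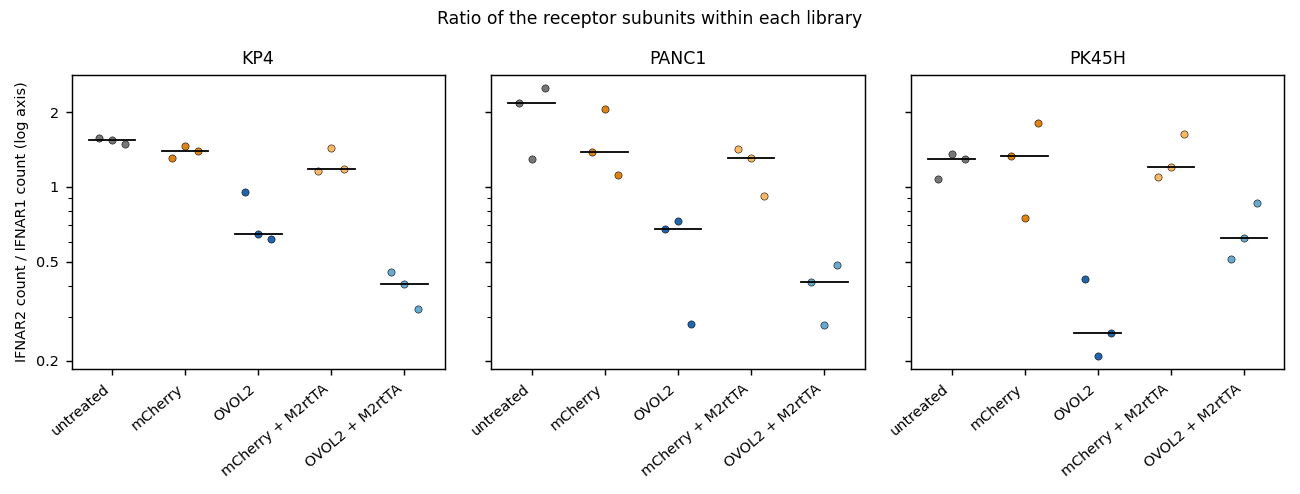
Ratio of IFNAR2 counts to IFNAR1 counts in each library of KP4, PANC1 and PK45H, on a log axis shared by the panels. Each point is 1 library and each line a group median. The medians of the OVOL2 groups lie between 0.258 and 0.679, those of the mCherry groups between 1.18 and 1.39.

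IFNAR2 and IFNAR1 lie in a row of receptor genes on chromosome 21, in GRCh38.p14 coordinates of RefSeq: IFNAR2 at 33229938 to 33265664, IL10RB at 33266367 to 33310182, IFNAR1 at 33324395 to 33359864 and IFNGR2 at 33402882 to 33437516. IL10RB, a subunit shared by the IL10 and interferon lambda receptors, rose by 0.41 ± 0.10 on the log2 scale over the lines (adjusted p = 0.002747). IFNGR2, a subunit of the interferon gamma receptor, rose by 0.45 ± 0.12 (adjusted p = 0.004697), and by 1.11 ± 0.18 in KP4 (adjusted p = 0.002379). In KP4, IFNGR2 stood at 44 ± 3.87 CPM with mCherry and 94.7 ± 3.19 CPM with OVOL2 (SD, n = 3). IFNAR2 was thus the one of these 4 neighbours whose counts fell. The annotation places a read-through transcript on the same strand and an antisense transcript over IFNAR2, neither of which is a row of the table, and the strand setting of the counting is not given in the sources used here.

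STAT2 (chromosome 12, 56341597 to 56360107), the ISGF3 subunit that carries the transactivation domain, showed no change without M2rtTA that passed the test, with a mean log2 fold change of 0.12 ± 0.17 (adjusted p = 0.694). Its level without M2rtTA was 11.6, 8.64 and 5.3 CPM with mCherry against 9.94, 17.1 and 11.9 CPM with OVOL2 in KP4, groups that overlapped. In PK45H it was 9.1, 5.05 and 10.4 CPM against 7.8, 8.43 and 6.86 CPM, also with overlap. In PANC1 it was 10.6, 10.1 and 10.7 CPM against 8.6, 9.93 and 9.47 CPM, where the OVOL2 libraries were all the lower ones. With M2rtTA the PK45H libraries separated, at 6.66, 7.79 and 9.01 CPM with mCherry and 17, 13 and 11.9 CPM with OVOL2, a log2 fold change of 0.84. In KP4 with M2rtTA the values were 7.18, 11.3 and 5.83 CPM against 10.1, 15.2 and 19.5 CPM, which overlapped, and the log2 fold change was 0.89.

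STAT3 (chromosome 17, 42313324 to 42388442) had no call with OVOL2 in any line without M2rtTA. Its level in KP4 was 63.1, 59.5 and 60.8 CPM with mCherry and 73.6, 55.1 and 61.6 CPM with OVOL2, and in PANC1 it was 96, 94.3 and 121 CPM against 123, 116 and 141 CPM. In PK45H it was 53.1, 35 and 57.5 CPM against 69.3, 44.3 and 40.7 CPM. The groups overlapped in all 3 lines. With M2rtTA the PK45H libraries separated, at 50.9, 65.2 and 54.5 CPM with mCherry and 46.8, 39.2 and 41.5 CPM with OVOL2. The log2 fold change there was -0.415, and the groups overlapped in KP4 and PANC1.

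IRF9 (chromosome 14, 24161265 to 24166565), the DNA-binding subunit of ISGF3, is the gene that chose the family. In KP4 it stood at 7.75, 6.38 and 8.76 CPM with mCherry and 33.5, 34.5 and 37 CPM with OVOL2. In PANC1 it stood at 5.41, 4.51 and 5.7 CPM against 13.7, 13.4 and 7.66 CPM, and in PK45H at 7.38, 8.54 and 6.44 CPM against 13.7, 21.9 and 14.8 CPM. In each line the 3 OVOL2 libraries lay above the 3 mCherry libraries, with log2 fold changes of 2.20, 1.16 and 1.16. With M2rtTA the KP4 values were 5.39, 8.44 and 7.58 CPM with mCherry and 76.7, 72.2 and 74.9 CPM with OVOL2, a log2 fold change of 3.39. PANC1 had 10.5, 4.07 and 9.15 CPM against 10, 15.2 and 19.3 CPM, and PK45H had 10.5, 10.2 and 13.8 CPM against 28.2, 25.9 and 23.5 CPM, with log2 fold changes of 0.95 and 1.17. The PANC1 groups overlapped there. Between the arms the OVOL2 level of IRF9 in KP4 went from a median of 34.5 to 74.9 CPM.

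**Figure D4:**
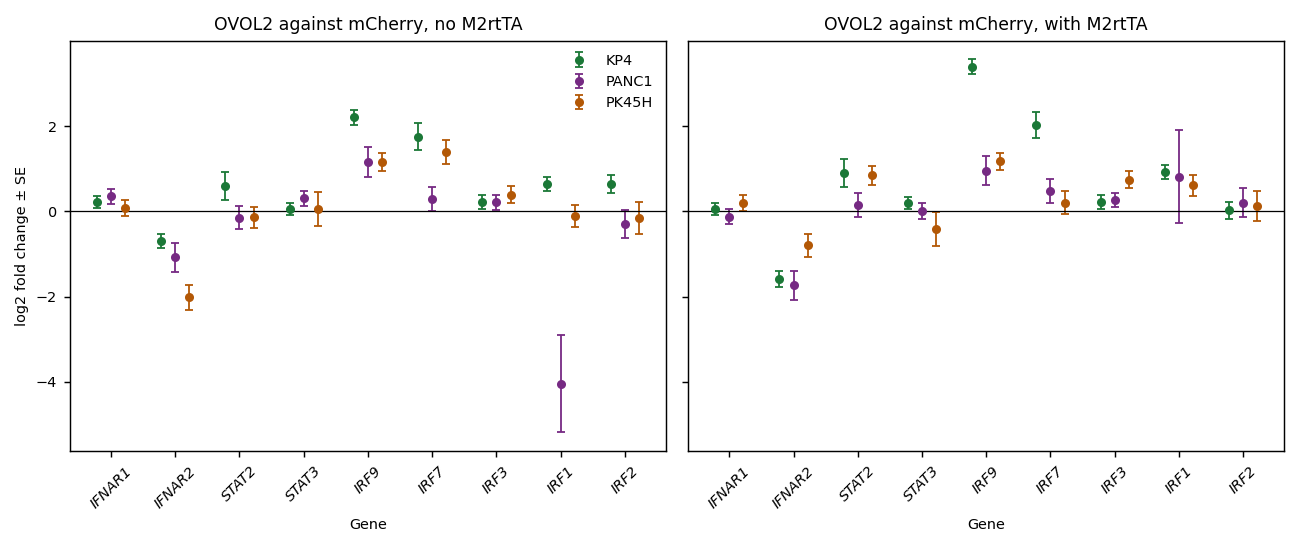
Log2 fold change of OVOL2 against mCherry for the 9 genes, without M2rtTA (left) and with M2rtTA (right). Points are the edgeR estimates per line and bars are ± 1 SE. IRF9 lies above 0 and IFNAR2 below 0 in all 3 lines and both arms, and the IRF1 point at -4.05 in PANC1 rests on 1 mCherry library.

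Promoter windows from 250 bases before to 50 after the RefSeq start were matched for 5 of the 9 genes, namely IRF1, STAT2, IRF9, STAT3 and IFNAR1, in 6 windows because IFNAR1 has 2. Both strands were searched for 3 motifs. The letters TTCNNNGAA, the palindrome bound by STAT dimers, were found in IRF1 and IRF9 and in 7.66% of all 35116 windows. The interferon-stimulated response element letters GAAANNGAAA were in none of the 6 windows and in 3.57% of all, and CCGTTA, the core letters of the OVOL family site, were in none of the 6 and in 3.07% of all. No match says only that these letters are not in the window. The stretches that hold the STAT-type letters are shown because IRF9 is the gene that chose the family and IRF1 the other family member with a match, 5′ to 3′ on the gene's strand with the match in capitals. IRF1 is at chr5:132490804-132490923 on the minus strand and IRF9 at chr14:24161192-24161221 on the plus strand, from RefSeq on GRCh38.p14.
IRF1: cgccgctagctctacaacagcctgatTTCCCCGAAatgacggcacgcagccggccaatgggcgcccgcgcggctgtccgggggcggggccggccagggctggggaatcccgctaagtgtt
IRF9: accacgtgatTTCTGGGAAaaggccctccc
The match begins 124 bases before the start in IRF1 and 63 bases before it in IRF9.

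IRF7 (chromosome 11, 612555 to 615950), which amplifies interferon production, rose with OVOL2 in KP4 and PK45H. In KP4 it went from 4.68, 5.76 and 3.46 CPM with mCherry to 22.9, 12.8 and 11.3 CPM with OVOL2. In PK45H it went from 3.69, 3.11 and 4.14 CPM to 7.09, 12.6 and 9.77 CPM. Untreated PK45H had 6.27, 6.74 and 7.23 CPM, above every mCherry library and overlapping the OVOL2 libraries. The mCherry and OVOL2 groups did not overlap in KP4 and PK45H, whereas PANC1 had 9.69, 9.69 and 5.7 CPM against 9.14, 12.2 and 9.07 CPM. The log2 fold change was 1.75 ± 0.31 in KP4 (adjusted p = 0.0037), 1.39 ± 0.28 in PK45H (adjusted p = 0.0076) and 0.29 ± 0.28 in PANC1, where it was not called. The mean over lines was 1.16 ± 0.17 (adjusted p = 4.462e-06), and the test of a difference between lines gave an adjusted p of 0.074. Thinning to the smallest total took the KP4 call to an adjusted p of 0.116. With M2rtTA the KP4 values were 5.16, 7.42 and 4.28 CPM against 25.2, 23.7 and 19 CPM. In PK45H with M2rtTA the groups overlapped, at 6.8, 5.38 and 7.27 CPM against 7.9, 4.93 and 9.48 CPM. The log2 fold changes with M2rtTA were 2.03 in KP4, 0.47 in PANC1 and 0.20 in PK45H, the last beside 1.39 without M2rtTA.

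IRF3 (chromosome 19, 49659572 to 49665857), the constitutively made factor downstream of the nucleic acid sensors, changed little. Its mean log2 fold change without M2rtTA was 0.29 ± 0.10 (adjusted p = 0.044), and this call was lost in 25 of the 36 fits that left out 1 library, with adjusted p up to 0.147. PK45H showed the clearest separation, at 39.1, 43.9 and 35.9 CPM with mCherry and 52.5, 55.3 and 51.7 CPM with OVOL2. With M2rtTA the PK45H values were 46.4, 37.1 and 42 CPM against 77.2, 85 and 47.2 CPM, a log2 fold change of 0.74. IRF3 overlaps BCL2L12 on the opposite strand, and reads of the pair could not be told apart if strand was not used. The annotation also places AL136295.5 over IRF9 on the same strand, and C5orf56 and AC116366.3 over IRF1 on the opposite strand. None of these was counted under that name.

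IRF1 (chromosome 5, 132481609 to 132490773), a transcription factor induced by interferon gamma, depended on 1 library in PANC1. Its level there was 12.4, 548 and 8.65 CPM with mCherry and 11.3, 14.5 and 8.47 CPM with OVOL2. The mean log2 fold change over lines was -1.15 ± 0.40 (adjusted p = 0.043), and without PANC1 mCherry replicate 2 it was 0.23 (adjusted p = 0.327). The test of a difference between lines likewise went from an adjusted p of 0.008475 to 0.4825. In KP4, where no library stood apart, IRF1 was 14.4, 14 and 15.9 CPM with mCherry and 22, 21.5 and 25.2 CPM with OVOL2, groups that did not overlap. The log2 fold change was 0.64 ± 0.16 (adjusted p = 0.032), a call lost in 5 of 9 alternatives, namely with the replicate block (0.0549), with no filter (0.0587), with only the 2 groups compared (0.0598), with thinning (0.101) and in one fit of all 51 libraries (0.724). It was also lost in 6 of the 15 fits that left out 1 library, each without 1 of the 6 libraries compared, with adjusted p up to 0.114. In PK45H without M2rtTA the groups overlapped, at 17.2, 15.9 and 22.5 CPM with mCherry and 10.6, 15.8 and 26.6 CPM with OVOL2. The log2 fold change there was -0.10 ± 0.26 and was not called (adjusted p = 0.862). With M2rtTA, IRF1 in KP4 was 13.5, 9.72 and 12.1 CPM against 21.8, 21.5 and 23.6 CPM. In PANC1 with M2rtTA it was 8.46, 8.15 and 9.78 CPM against 14.4, 14.4 and 16.5 CPM, and in PK45H 16.6, 21.7 and 17 CPM against 26.5, 26.7 and 30.6 CPM. In this arm all OVOL2 libraries lay above all mCherry libraries in each line.

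IRF2 (chromosome 4, 184387729 to 184474550), the antagonist of IRF1, had no call with OVOL2 without M2rtTA. Its level in KP4 was 9.36, 8.23 and 7.84 CPM with mCherry and 12.4, 14.7 and 12.5 CPM with OVOL2, groups that did not overlap. In PK45H it was 9.1, 12.4 and 5.52 CPM against 8.98, 11.1 and 4.16 CPM, which overlapped. With M2rtTA the groups overlapped in all 3 lines, and the log2 fold change in KP4 was 0.02.

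Counted per line without M2rtTA, 3 of the 8 genes other than IRF9 were called in KP4 (IRF1 and IRF7 higher, IFNAR2 lower), where 6.82% of all genes were called. None of the 8 was called in PANC1 by edgeR, where 5.08% of all genes were, 2 had an unadjusted p under 0.05, and DESeq2 called 1. In PK45H 2 of 8 were called (IRF7 higher, IFNAR2 lower) beside 8.39% of all genes. For the mean over lines 4 of 8 were called beside 18.1%, and 1 of these 4, IRF1, rested on the single PANC1 library. For the difference between lines 1 of 8 was called beside 2.74%, again IRF1. With M2rtTA 22.4%, 13.9% and 15.9% of all genes were called in KP4, PANC1 and PK45H, and 32.9% for the mean over lines. No count of members is given for that arm, since it was used to choose the family.

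Comparing mCherry with untreated cells takes in the virus, polybrene, puromycin and doxycycline together, whose parts cannot be told apart, since the labels describe these for transduced cells. None of the 9 genes was called by edgeR in KP4, PANC1 or PK45H, where 0.0%, 0.598% and 0.00736% of all genes were, and 2 of the 9 had an unadjusted p under 0.05 in each line. IRF9 was 9.7, 9.47 and 10.7 CPM in untreated KP4 and 6.35, 8.22 and 8.64 CPM in untreated PANC1, in both lines above every mCherry library of the line. IRF7 was likewise higher in untreated PK45H than in every mCherry library there, with a log2 fold change of -0.85 ± 0.29 for mCherry against untreated that was not called (adjusted p = 0.466). IRF1 in PANC1 had 3.96 in that comparison and -0.22 without PANC1 mCherry replicate 2. DESeq2 likewise called none of the 9 in these comparisons. M2rtTA in mCherry cells changed none of the 9 at the threshold in any line, where 0.0%, 0.0% and 0.0294% of all genes were called, and the numbers with an unadjusted p under 0.05 were 0, 1 and 2. The 1 in PANC1 was IRF1, whose log2 fold change of -4.44 was -0.26 without PANC1 mCherry replicate 2. DESeq2 called none of the 9 there either. The latter comparison shares its mCherry + M2rtTA libraries with the OVOL2 comparison of that arm.

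Among the 5 untreated lines, 5 of the 9 genes differed (IRF1, IRF7, IRF9, STAT3 and IFNAR1), where 57.8% of all genes did. Over the 10 pairs of lines 19 of 90 tests were called, beside 26.5% of all gene tests pooled over the pairs. IRF9 was highest in HPAFII, at 42.4, 23.5 and 39.9 CPM. The order of the other medians was KP4 (9.7 CPM), PK45H (8.43), PANC1 (8.22) and PATU8988S (6.09). HPAFII exceeded each of the 4 other lines, with log2 differences of 1.90 to KP4 and 2.59 to PATU8988S at the extremes. Among those 4 only KP4 and PATU8988S differed, by 0.69 (adjusted p = 0.046).

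STAT3 had its lowest untreated levels in HPAFII, at 28.5, 27.4 and 27.8 CPM, and PATU8988S, at 24.1, 30.2 and 22.4 CPM. These 2 lines did not differ from each other at the threshold, and each was below KP4, PANC1 and PK45H. PANC1 was highest by median, at 148, 132 and 113 CPM, followed by KP4 at 75, 82.7 and 76.8 CPM. PK45H had 50.9, 50.9 and 172 CPM. Without its replicate 3 the difference of HPAFII from PK45H went from -1.69 to -0.86 on the log2 scale (adjusted p = 0.0052), and PANC1 then exceeded KP4 and PK45H as well (adjusted p = 0.003705 and 0.0001975).

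IFNAR1 was lowest in untreated PANC1, at 9.06, 11.6 and 8.64 CPM, beneath each of the 4 other lines, of which KP4 had 18.5, 18.1 and 18.6 CPM. IRF1 was higher in HPAFII, at 26.9, 19.6 and 30.8 CPM, than in PANC1 and PATU8988S, and PK45H exceeded PATU8988S. IRF7 differed in 1 pair, HPAFII above KP4 by 1.33 (adjusted p = 0.016). IRF2, IRF3, STAT2 and IFNAR2 had no call among the lines. Leaving out HPAFII untreated replicate 2, the shallowest library, gave 6 of 9 genes and 28 of 90 pair tests, IRF3 being the gene added (adjusted p = 0.00852). Over the fits that left out 1 untreated library, 7473 to 8537 of all genes differed among the lines, beside 7971 with none left out. The share of all genes in this fit and in its pair tests is not given here. Nothing about the members is therefore read from these higher counts.

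Other genes of the pathway were counted from lists, for the mean over lines without M2rtTA. The lists were chosen with earlier results of these data known, and the family by the rise of IRF9, a part of ISGF3. Their counts are therefore a description and not independent support. The median log2 fold change of all genes tested was 0.001, and 18.1% of them were called, against which each list count over the lines is to be read. Of 27 ISGF3 target genes tested, 9 rose and 0 fell, with a median of 0.34. ISG15, a ubiquitin-like modifier, rose by 1.03 ± 0.08 (adjusted p = 1.093e-11), OAS2, a synthase of the activator of RNase L, by 1.14 ± 0.29 (0.005238), and MX1, an antiviral GTPase, by 0.83 ± 0.24 (0.01228). Over the alternatives the number that fell was 0 to 1 and the number that rose was 2 to 9, the 2 being with all libraries thinned to the smallest total, and it was 8 without PANC1 mCherry replicate 2. By line, 8 of 26 rose in KP4, 2 of 20 in PANC1 and 1 of 24 in PK45H, beside 6.82%, 5.08% and 8.39% of all genes called in either direction, none of the targets was called lower, and the medians were 0.87, 0.11 and -0.12. ISG15 had 53.2 ± 6.59 CPM with mCherry and 215 ± 15.8 CPM with OVOL2 in KP4, and 52.7 ± 8.36 CPM against 67.4 ± 4.15 CPM in PK45H (SD, n = 3), and its effect differed between lines (adjusted p = 6.555e-06). MX1 went from 4.84 ± 0.93 to 28.4 ± 3.62 CPM in KP4 but was 1.99 ± 0.07 and 2.02 ± 0.95 CPM in PK45H.

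Of 13 nucleic acid sensing genes tested, 2 rose and 1 fell over the lines, with a list median of 0.31. DDX58 and IFIH1, which encode the RNA sensors RIG-I and MDA5, rose by 0.96 ± 0.19 (adjusted p = 0.0002485) and 0.97 ± 0.19 (adjusted p = 0.000288). STING1, the adaptor of DNA sensing, fell by 0.70 ± 0.20 (adjusted p = 0.01216). By line, DDX58 was called in KP4 (1.87) and PANC1 (1.16), IFIH1 in KP4 alone (2.06) and STING1 in PK45H alone (-1.35). The PANC1 call of DDX58 was lost in 4 of the 15 fits that left out 1 library. The effects of all 3 genes differed between lines (adjusted p = 0.03228, 0.03359 and 0.04854 by the test of the difference). Of the 7 kinases and other STATs tested, TYK2 alone passed, at 0.35 ± 0.11 (adjusted p = 0.0181), with a list median of 0.15. Its call was lost with thinning (adjusted p = 0.555) and in 4 of the 36 fits that left out 1 library, among them the one without PANC1 mCherry replicate 2 (0.0505). With 18.1% of all genes called, 3 of 13 and 1 of 7 are near that share. Thinning also ended the STING1 call (adjusted p = 0.403).

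Of 8 other interferon and IL6-family receptors, 2 rose (IL10RB and IFNGR2, above) and 2 fell, with a list median of 0.30. The falls were in LIFR, the receptor of LIF, by 1.37 ± 0.18 (adjusted p = 6.777e-07), and in IL6ST, the signalling subunit gp130, by 0.29 ± 0.08 (0.00977). LIFR was called lower in each of the 3 lines. Its PANC1 call was lost in 1 of 9 fitting alternatives and in 6 of the 15 fits that left out 1 library. Of 11 inhibitors tested, PTPN1, a phosphatase that acts on JAK kinases, rose by 0.40 ± 0.14 (adjusted p = 0.03546), with a list median of 0.14. The PTPN1 call was lost with thinning (adjusted p = 0.221) and in 8 of the 36 fits that left out 1 library. Of 15 ligand genes only 4 passed the filter on low counts, and LIF rose by 0.52 ± 0.12 (adjusted p = 0.001486), a call lost with thinning (0.11). Of 11 IRF1 and gamma targets tested, TAP1, a peptide transporter of antigen presentation, rose by 1.01 ± 0.12 (adjusted p = 7.604e-08), while the list median was 0.03. By line, PTPN1 (0.845) and LIF (1.27) were called in KP4 alone, and TAP1 in KP4 (1.81) and PANC1 (0.854).

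Of 10 STAT3 targets tested, 3 rose and 1 fell, with a list median of 0.37. LCN2, an iron-binding lipocalin, rose by 1.5 ± 0.16 (adjusted p = 6.148e-09), JUNB by 0.74 ± 0.15 and PIM1 by 0.77 ± 0.27, and BCL3 fell by 0.42 ± 0.10. PIM1 lost its call in 9 of the 36 fits that left out 1 library. Of 4 other IRF genes tested, 1 was called, IRF5, whose counts were too low in PK45H for a fold to be given. IRF5 did not pass the filter on low counts when thinned. Of 6 epithelial markers, 3 rose in KP4, 5 rose in PK45H, and in PANC1 2 rose and 1 fell, with 3 rising for the mean over lines. In KP4, PK45H, PANC1 and the mean, 6.82%, 8.39%, 5.08% and 18.1% of all genes were called in either direction. The 6-gene sum of the markers was 760 to 811 CPM in KP4 mCherry and 1057 to 1208 CPM in KP4 OVOL2. In PK45H it was 2584 to 2989 CPM against 4340 to 4730 CPM. In PANC1 it was 2201 to 2639 CPM with mCherry and 2321 to 2606 CPM with OVOL2, which overlapped, and the markers' part in the values above was not tested.

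Genes whose group means followed each member over the 17 groups were ranked among 10271 genes by Pearson's r of mean log2 CPM. These groups share lines and the OVOL2 treatment, so the values are a description. Nearest to IRF9 were ITPKC (0.902), ISG15 (0.898), HELZ2 (0.874), CCDC125 (0.865) and TSC22D4 (0.862). Nearest to IRF7 were IFIH1 (0.85) and DDX58 (0.797), and nearest to IFNAR2 were BLVRA (0.922) and PPARGC1B (0.919). STAT3 was followed most closely by MGAT5B (0.937) and SNF8 (0.931), and IFNAR1 by CTPS2 (0.925) and INPP4B (0.908). STAT2 was followed by ZC3H8 (0.858) and OPRD1 (0.808), IRF3 by LEPROTL1 (0.892) and ANO8 (0.869), and IRF2 by GSTZ1 (0.797) and DERL1 (0.79). For IRF1 they were EPB41 (0.751) and SYNPO2 (0.721), in a ranking that includes the PANC1 library at 548 CPM.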

How the data were processed

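Gene counts by PLATE-seq were analysed in 51 libraries. The values deposited by the authors are raw counts per gene symbol, and the submitters' processing notes name kallisto 0.44.0 and GRCh38. Handling of molecular identifiers and strand is not given in the sources used here. All columns matched a sample label. Tests used edgeR 4.0.16 under R 4.3.3 (filterByExpr, TMM, quasi-likelihood tests, Benjamini-Hochberg threshold 0.05): 15 libraries per transduced line, 45 for the mean over lines and for the difference between lines, and 15 untreated libraries. SEs come from the test statistic. In simulated counts on 13259 genes, the KP4 fit recovered 54% of 2-fold and 100% of 4-fold changes. The test of the difference between lines, simulated on 14067 genes, recovered 19% of 2-fold and 94% of 4-fold changes, so most 2-fold differences between lines would be missed. Changes were simulated only in genes with higher mean counts, with the same dispersion for every gene, and for the test between lines in KP4 alone. The recovery rates therefore do not carry over to members with few counts. The simulation was altered after a first version, which held 2-fold changes, recovered fewer of them than required, and recovery was then required at 4-fold and only recorded at 2-fold. CPM use TMM factors over all libraries. Replicate numbers did not pair libraries (median correlation of deviations -0.009 to -0.003 between equal numbers). Libraries of a group differed by more than sampling noise. Alternatives were RLE scaling, 2 other filters, DESeq2 1.42.0, other sets of libraries in the fit, a replicate block, thinning to 1165399 counts, leaving out each library and, added after the data were seen, robust dispersion. The members, lists and naming rule (of each list and comparison at most 4 called genes per direction, by smallest p; nearest genes by correlation) were chosen with earlier results of these data known. Some list genes enter the fits and counts but are not reported here.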

Additional observations from a re-analysis of the deposited data

Results flagged for a closer look

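Effects of OVOL2 without M2rtTA that differed between KP4, PANC1 and PK45H, by edgeR's quasi-likelihood test of the difference with adjusted p-values over all genes, were seen for IRF1 among the members tested (adjusted p = 0.008475). That difference rested on PANC1 mCherry replicate 2, without which the adjusted p was 0.4825. Among the pathway genes they were seen for ISG15 (6.555e-06), LCN2 (5.97e-05), OAS3 (0.001986), MX1 (0.002061), TAP1 (0.006958), LIF (0.01457), IFNGR2 (0.02522), DDX58 (0.03228), IFIH1 (0.03359), PTPN1 (0.04519) and STING1 (0.04854). In this test of the difference 2.74% of all genes were called. Within lines, ISG15, OAS3, MX1, TAP1, LIF, IFNGR2, DDX58, IFIH1 and PTPN1 were called higher in KP4. ISG15, TAP1 and DDX58 were also called higher in PANC1, with log2 fold changes of 0.69, 0.85 and 1.16. The PANC1 call of ISG15 was lost in 4 of 9 fitting alternatives and in 5 of the 15 fits that left out 1 library. That of DDX58 was lost in 1 of 9 and 4 of 15, and that of TAP1 in 1 of the 9 fitting alternatives. LCN2 was called higher and STING1 lower in PK45H.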

How the results depend on the processing

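Counts are of members past the threshold. Of the 8 tested with OVOL2 in KP4 without M2rtTA, 3 were called. It was 1 with no filter, in one fit of all 51 libraries and with only the 2 groups compared, 0 when thinned, and 1 to 4 when single libraries were left out. In PANC1 the 0 became 1 with DESeq2 or no filter and 2 in one fit of all libraries, and ranged from 0 to 1 with single libraries left out. The 4 of the mean over lines became 2 when thinned, and 2 to 4 with single libraries left out. The 1 of the difference between lines became 0 with the replicate block, and 0 to 2 with single libraries left out, 0 being the value without PANC1 mCherry replicate 2. In one fit of all libraries 1 of 9 was called in PANC1 for mCherry against untreated and 1 for M2rtTA. The 5 of the untreated lines became 3 when thinned. Other counts stayed within 1.5 times of the value reported. IRF1 reversed without PANC1 mCherry replicate 2: in PANC1 its log2 fold change ranged from -4.588 to 0.135 over the left-out libraries, and for the mean over lines from -1.347 to 0.234. The replicate block left the IRF1 mean at -0.844 (adjusted p = 0.152); the cause of these shifts was not tested. The replicate numbers share only a label. IRF7, IRF2 and STAT2 have single libraries with few counts, and so does IFNAR2 in OVOL2 cells of PANC1 and PK45H. Genes called over the whole table without M2rtTA ranged over the fitting alternatives from 345 to 1096 in KP4 (932 reported), 292 to 859 in PANC1 (671), 505 to 1661 in PK45H (1139), 1481 to 2723 for the mean (2710) and 187 to 483 between lines (409), with thinning the lowest in each. The highest was DESeq2 in each line. With M2rtTA the ranges were 1690 to 3057 for KP4, 922 to 1926 for PANC1, 1087 to 2719 for PK45H and 3178 to 4954 for the mean. For mCherry against untreated, KP4 had 0 to 11, PANC1 had 23 to 177 (79 reported) and PK45H had 0 to 44 (1 reported), and for M2rtTA in mCherry cells from 0 to 23, 0 to 27 and 1 to 103. ISGF3 targets that rose in KP4 numbered 2 to 9 (8 reported).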
